A study of Bos taurus with 38 samples.

Results

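The comparison is between the livers of Jersey cows of parity 1 and of parity 3, where parity is the number of calvings. Members were taken by the breed and parity given in the sample labels. They are 16 liver biopsy libraries of 8 cows, out of 38 libraries of 19 cows in the series. The parity 1 group held 4 cows (cows 13, 14, 17 and 18) and the parity 3 group 4 cows (cows 3, 4, 5 and 8). All of them were lactating cows of 1 research herd without any genetic modification, and each gave 1 biopsy on a control diet (C), which is low in concentrate, and 1 on a diet high in concentrate (HC), in a crossover of 2 periods. In each parity group 2 cows carried the feed efficiency label High and 2 the label Low, and 2 cows had received the HC diet first. In parity 1 the cows given the HC diet first were those labelled Low, so label and diet order coincide there. In parity 3 they were crossed. High feed efficiency means low residual feed intake (RFI), the actual minus the predicted feed intake. The labels give no age. Cows had been selected in blocks of like lactation stage that kept first-parity cows apart from older ones, so parity cannot be told apart from age, lactation stage or selection block.

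As background, a cow in her first lactation is still growing, while an older cow is mature and usually gives more milk. The liver stands between feed and udder. It makes glucose, takes up and burns the fatty acids that body fat releases, exports lipid, and turns cholesterol into bile acids. It is also the main target of growth hormone, whose signal leads to insulin-like growth factor and is ended by proteins of the SOCS family. A liver biopsy holds hepatocytes together with resident macrophages, lymphocytes, vessel cells and blood. In such bulk tissue, fewer cells of a type cannot be told apart from less RNA per cell.

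The 16 libraries held between 18401658 and 24478289 read pairs on genes, and 75.55% to 78.21% of their counted read pairs fell on genes. After the C and HC libraries of each cow were summed, the cows held 38635721 to 44567379 read pairs in parity 1 and 37250161 to 42088362 in parity 3. Levels are given as CPM of these sums, that is, as counts scaled to a common library size. They are not corrected for gene length, and so are compared between cows and not between genes. Sample labels were checked with 31 genes that were on in some Jersey libraries and off in others. The paired libraries of cow 17 shared their state in 26 of them, as did those of cow 14 in 26, against 29 to 31 in the other 6 cows compared here. The library labelled cow 17 on the C diet was alike in 29 genes to that labelled cow 10, a parity 2 cow, on the same diet, and the HC libraries of cows 10 and 17 were alike in all 31. The 2 libraries labelled cow 10 were alike in only 24 genes, so the labels of cows 10 and 17 may be crossed between their diets. Their sums and their HC minus C differences may then each mix a parity 1 and a parity 2 animal. Since each cow gave 1 library per diet, 1 C and 1 HC label among these libraries would then be wrong too. Each sum would hold 2 libraries of the same diet, and neither HC minus C difference would be between diets. The diet values of cows 10 and 17 given below rest on these labels. The 2 libraries of cow 14, alike in as few genes as those of cow 17, may also not come from 1 animal, which was not tested. If so, the sum and the HC minus C difference of cow 14 are in doubt too. The labels were used as given. The genes with the smallest p are also given without cow 17, and other genes without cow 14, cow 17 or both where these cows carry the level. Hepatocyte markers could not be checked, since 0 of the 19 in the list were paired with an identifier. The liver enzyme CYP7A1 was present in each of the 8 cows, at 89.6 to 361.8 CPM.

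Few genes separated the parities once all genes were accounted for. Of 11953 genes tested, 2 had a Benjamini-Hochberg adjusted p under 0.05 in edgeR's quasi-likelihood test (0.0167%). Both were higher in parity 3. In the lower direction 0 genes were called. Of all genes tested, 631 (5.28%) were lower and 516 (4.32%) higher in parity 3 at an unadjusted p under 0.05, together 9.60%. DESeq2 called 143 genes, of which 46 were higher in parity 3, while limma-voom on the same cow sums called 2.

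The called genes are known here only by their Ensembl identifiers, because the files pair no identifier with a gene name. ENSBTAG00000022520 had 23.9, 22.6, 22.5 and 26.1 CPM in parity 1 cows 13, 14, 17 and 18, and 37.0, 37.9, 33.9 and 33.8 CPM in parity 3 cows 3, 4, 5 and 8. Within each parity the cow sums lay close together, and the groups were well apart. The group means were 23.8 ± 1.66 CPM and 35.6 ± 2.09 CPM (SD, n = 4 cows each), with 0.58 as the log2 fold change (SE 0.059, edgeR adjusted p = 0.0494). The call was lost when any 1 of the 8 cows was left out, with adjusted p from 0.0712 to 0.162, while the log2 fold change stayed between 0.56 and 0.61. Without cow 17 it was 0.58 (edgeR adjusted p = 0.143). With the 16 libraries fitted singly and the cow as a random block, the call was lost too (limma-voom adjusted p = 0.0918). The 2 libraries differed most in cow 13, at 15.2 (C) and 34.0 CPM (HC), and in cow 8, at 21.3 and 45.7 CPM. On the C diet alone the groups overlapped, as given below.

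ENSBTAG00000006928 had 23.7, 13.9, 18.8 and 21.99 CPM in the same order of parity 1 cows, and 59.3, 48.5, 32.7 and 31.8 CPM in the parity 3 cows. All parity 3 cows lay above all parity 1 cows, with cows 3 and 4 highest. The means were 19.6 ± 4.32 and 43.1 ± 13.2 CPM (SD, n = 4 cows each), with 1.11 as the log2 fold change (SE 0.116, edgeR adjusted p = 0.0494). Without cow 17 the log2 fold change was 1.23 and the call was kept (edgeR adjusted p = 0.0251). Leaving out any one of the other 7 cows ended the call, with adjusted p from 0.0781 to 0.178.

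In the other direction the smallest p belonged to ENSBTAG00000011624. It had 5.40, 8.78, 5.44 and 3.27 CPM in parity 1 cows 13, 14, 17 and 18, and 0.139, 0.561, 1.35 and 0.881 CPM in parity 3 cows 3, 4, 5 and 8. The groups did not overlap in these sums, although the parity 3 levels were near the limit of 1 CPM. In every cow the gene was higher in the library labelled C. Parity 1 cows 13, 14, 17 and 18 had 9.60, 19.5, 9.38 and 5.198 CPM on the C diet. On the HC diet they had 0.365, 0.237, 1.47 and 0.894 CPM. There the groups overlapped, since cow 14 lay below cow 5 of parity 3, at 0.346 CPM. Fitted on each diet alone, the log2 difference was -3.08 (C) and -2.95 (HC), with edgeR adjusted p = 0.0786 and 0.403. Over both diets, the log2 difference of -3.06 (SE 0.381) did not pass the threshold (edgeR adjusted p = 0.0838). Without cow 17 it was -3.28 (edgeR adjusted p = 0.143). It was -2.97 without cow 14, the highest of parity 1, and -3.58 without both. The parity 2 cows differed from each other at this gene, with 0.380 CPM in cow 10 and 10.4 CPM in cow 12. Next was ENSBTAG00000000342, with 53.5, 58.9, 60.3 and 59.3 CPM in parity 1 and 41.3, 37.6, 43.1 and 42.7 CPM in parity 3. The cows of a group differed little at this gene. Its log2 difference of -0.50 (SE 0.064) did not pass either (edgeR adjusted p = 0.0838). Without cow 17 that difference was -0.49 (edgeR adjusted p = 0.281).

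**Figure D1:**
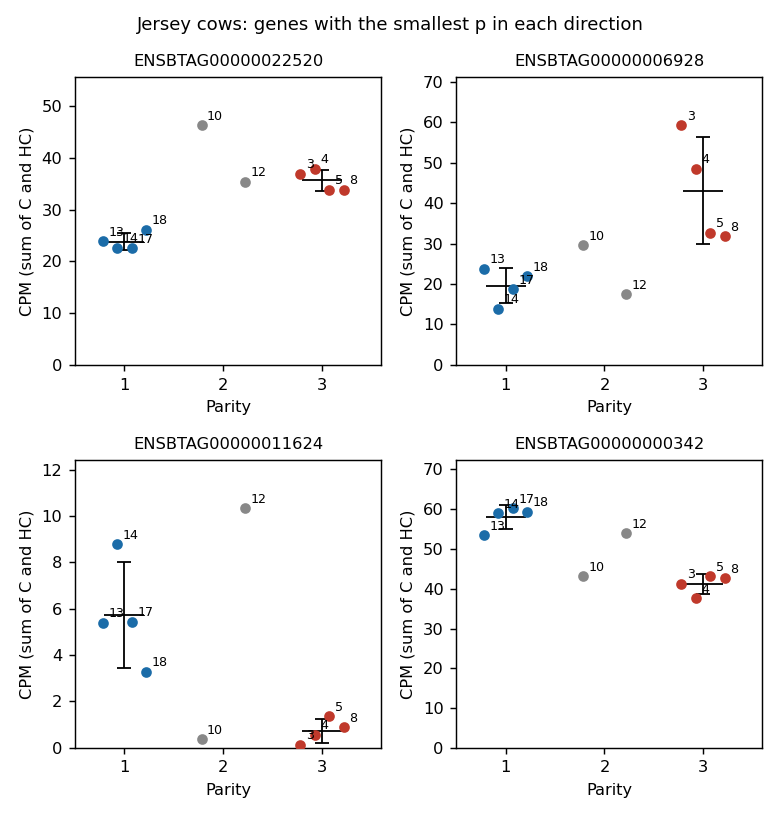
CPM (counts scaled to library size) of the summed C and HC libraries of each Jersey cow (y axes, from 0) by parity (x axes) for the genes with the smallest p in each direction. Points are cows with their numbers, and bars are mean ± SD of the 4 cows of parity 1 or 3. Both genes of the top row are higher in every parity 3 cow and both genes of the bottom row are lower, while parity 2 cows 10 and 12 stand apart from each other at ENSBTAG00000011624.

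Below the threshold, the differences were mostly small. The median absolute log2 fold change was 0.10 over all genes tested and 0.34 over the 1147 genes with an unadjusted p under 0.05. Among these, 34 genes were at least 2-fold higher in parity 3 and 32 at least 2-fold lower. The median SD of log2 CPM among the cows of a group was 0.15 in parity 1 and 0.14 in parity 3. In 681 genes (5.70%) the 4 cows of one parity lay entirely on one side of the 4 of the other, 303 of them higher (2.53%) and 378 lower (3.16%) in parity 3. The parity 2 cows, which the comparison did not use, lay between the 2 group means in 376 of these genes for cow 10 and in 407 for cow 12. Cow 10 lay beyond the parity 3 mean in 227 genes and beyond the parity 1 mean in 78. For cow 12 these numbers were 128 and 146. The genes were picked because the groups lie apart, and the shares over all genes were not taken. These counts therefore do not show that parity 2 lies between the groups.

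In the principal components of the 500 most variable genes over the 10 Jersey cows, the first component held 19.9% of the variance and did not separate the parities. It ran from -18.1 to 6.09 in parity 1 and from -8.49 to 6.69 in parity 3. On the second component, with 18.7%, the parity 3 cows lay between -14.1 and -1.05 and parity 1 cows 13, 17 and 18 between 4.04 and 14.3. Parity 1 cow 14 lay at -6.22, among the parity 3 cows.

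Names were available for 76 tested genes, which the study had paired with identifiers in its lists of genes differing by RFI in these same cows. They are therefore not an independent sample of the liver's genes. edgeR called 0 of the 76, while 13 (17.1%) reached an unadjusted p under 0.05, against 9.60% of all genes tested. Of the named genes described below, DESeq2 called ACOT8, SOCS2 and PKDREJ, all lower in parity 3. Of the 76, 34 had a positive and 42 a negative log2 fold change, with a median of -0.03 against -0.00054 over all genes tested. The genes below are given by role, each with its levels. In each list the 2 paired genes with the smallest p were named by rule, and the other genes were chosen after their values were seen.

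In the growth hormone axis, 2 of the 29 genes listed were paired. SOCS2 encodes an inhibitor of growth hormone receptor signalling that is itself induced by growth hormone. It had 44.9, 41.1, 46.5 and 30.5 CPM in parity 1 cows 13, 14, 17 and 18, and 14.9, 31.0, 17.02 and 20.8 CPM in parity 3 cows 3, 4, 5 and 8. Cow 4 of parity 3 lay just above cow 18 of parity 1, and the other cows were apart. The means of 40.8 ± 7.21 and 20.9 ± 7.15 CPM (SD, n = 4 cows each) gave a log2 difference of -0.96 (SE 0.237, edgeR adjusted p = 0.314). Without cow 17 it was -0.88, and -0.71 without cows 14 and 17. The parity 2 cows, at 47.1 and 41.0 CPM, were at the level of parity 1. INHBE, a secreted hepatic factor of the activin family, had means of 39.0 ± 9.78 CPM in parity 1 and 32.4 ± 12.8 CPM in parity 3 (SD, n = 4 cows each), and its groups overlapped.

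Of the genes for making fatty acids and triglycerides, 3 of 32 were paired, and their differences had different signs. DGAT2, which joins the last fatty acid to a triglyceride, had 29.7, 23.8, 29.9 and 26.1 CPM in parity 1 and 19.6, 17.2, 17.7 and 27.5 CPM in parity 3. Cow 8 of parity 3 lay within the range of parity 1 and the other 3 below it. The log2 difference was -0.42 (SE 0.156, edgeR adjusted p = 0.454). ACACA, the acetyl-CoA carboxylase that commits carbon to fatty acid synthesis, had 43.1, 38.5, 29.6 and 24.9 CPM in parity 1 and 35.7, 47.9, 46.5 and 48.03 CPM in parity 3. Here cow 3 was the only parity 3 cow within the range of parity 1, and the log2 difference was 0.39 (SE 0.178, edgeR adjusted p = 0.546). ELOVL6, which lengthens the fatty acid chain, had a log2 difference of 0.31 (SE 0.206), which was -0.11 in the C libraries alone.

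The acyl-CoA thioesterase of peroxisomes, ACOT8, had the smallest p of the genes with a name. It had 23.4, 31.5, 23.8 and 23.5 CPM in parity 1 cows 13, 14, 17 and 18, and 16.2, 16.2, 14.7 and 19.5 CPM in parity 3 cows 3, 4, 5 and 8. All parity 3 cows lay below all parity 1 cows. The log2 difference was -0.61 (SE 0.117, edgeR adjusted p = 0.260). It was -0.51 without cow 14, the highest of parity 1, -0.68 without cow 17 and -0.54 without both. Cow 10 of parity 2 had 15.9 CPM, a level of parity 3, and cow 12 had 25.6 CPM, a level of parity 1. In the list of fatty acid oxidation and ketone bodies, 3 of 47 genes were paired, with a median log2 fold change of -0.02. The peroxisomal enzymes of that list given here were close between the parities. HSD17B4, of the beta-oxidation cycle, had 912.5 ± 86.3 CPM in parity 1 and 923.5 ± 29.1 CPM in parity 3, and HACL1, of alpha-oxidation, had 351.0 ± 35.7 and 319.2 ± 83.5 CPM (SD, n = 4 cows each).

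CYP7A1, the rate-limiting enzyme of bile acid synthesis, varied widely among cows. It had 285.4, 361.8, 190.6 and 135.5 CPM in parity 1 and 210.9, 89.6, 178.8 and 133.4 CPM in parity 3. The groups overlapped, and the log2 difference was -0.65 (SE 0.340, edgeR adjusted p = 0.599). Without cow 14, the highest of parity 1, it was -0.41. NR1H4, the bile acid receptor FXR, had 70.2 ± 9.48 and 66.7 ± 16.9 CPM (SD, n = 4 cows each). They were the only paired genes of the 29 listed for bile acids.

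Enzymes of drug and steroid oxidation differed by less than their spread. CYP3A4, which oxidises drugs and may share reads with near-identical copies, had 116.3 ± 28.0 CPM in parity 1 and 125.2 ± 9.87 CPM in parity 3. FDXR, which passes electrons to mitochondrial P450 enzymes, had 6.18 ± 2.44 and 6.51 ± 1.73 CPM. CYP11A1, the cholesterol side-chain cleavage enzyme, had 23.5 ± 9.98 and 29.9 ± 20.4 CPM (SD, n = 4 cows each). All 3 differences were positive and none was called. The amino acid genes CTH, of cysteine synthesis, and ALDH18A1, of proline synthesis, had log2 differences of 0.27 (SE 0.151) and -0.09 (SE 0.106). FICD, an enzyme that regulates the chaperone BiP, had a log2 difference of -0.04 (SE 0.380), and UHRF1, which keeps DNA methylation through cell division, of -0.76 (SE 0.464). Each of these was the only paired gene of its list, unfolded protein stress and cell cycle.

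SELP encodes P-selectin, which catches leukocytes on the vessel wall and is also carried by platelets. It had 25.1, 11.6, 22.1 and 19.6 CPM in parity 1 cows 13, 14, 17 and 18, and 33.7, 29.3, 26.3 and 32.1 CPM in parity 3 cows 3, 4, 5 and 8. All parity 3 cows lay above all parity 1 cows, by little between cow 13 and cow 5. The log2 difference was 0.64 (SE 0.195, edgeR adjusted p = 0.382). It was 0.46 without cow 14, the lowest of parity 1, 0.81 without cow 17 and 0.50 without both.

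Markers of T and NK cells were paired for 4 of 47 genes. CD3D, a chain of the T cell receptor complex, had 3.42 ± 0.211 CPM in parity 1 and 4.55 ± 1.55 CPM in parity 3, where cow 8 was highest at 6.72 CPM. Its log2 difference of 0.38 was 0.19 without cow 8 and 0.07 without cows 14 and 17. NKG7, a cytotoxic granule protein, had 8.71 ± 0.572 and 9.58 ± 2.45 CPM (SD, n = 4 cows each). The lymphocyte GTPase GIMAP4 had 8.22, 61.3, 45.6 and 7.31 CPM in parity 1 and 26.5, 27.3, 28.0 and 68.0 CPM in parity 3. It thus differed more within parity 1 than between the groups, and the fitted log2 difference was 0.78 (SE 0.430, edgeR adjusted p = 0.608). The value depended on which cows were fitted, being 1.79 without cows 14 and 17, 0.50 to 1.22 without each cow in turn, and 0.29 without the feed efficiency term. GIMAP8, of the same family and open to shared reads, was also highest in cow 14 of parity 1 (76.8 CPM) and cow 8 of parity 3 (77.7 CPM). For the myeloid list 1 of 34 genes was paired. This was LYZ, lysozyme, with 16.6, 19.6, 19.7 and 15.6 CPM in parity 1 and 12.7, 12.8, 11.3 and 17.3 CPM in parity 3. Cow 8 again lay apart from the other parity 3 cows, and the log2 difference was -0.40 (SE 0.122, edgeR adjusted p = 0.389). CR2, the complement receptor of B cells, had 59.7 ± 28.9 and 55.3 ± 15.5 CPM (SD, n = 4 cows each), with a log2 difference of -0.11 that was -0.71 without cows 14 and 17. Whether leukocytes in the biopsies bear on any other difference was not tested.

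The MHC class I genes share sequence among themselves, so reads may be divided uncertainly among them. JSP.1 had 77.8, 118.0, 88.8 and 126.9 CPM in parity 1 and 74.7, 167.9, 128.5 and 324.5 CPM in parity 3. Cow 8 was far above the others, and the log2 difference was 0.69 (SE 0.375, edgeR adjusted p = 0.606). It was 0.27 without cow 8 and 0.24 without cows 14 and 17. BOLA-A had 22.4 ± 4.04 and 21.8 ± 6.19 CPM, and the interferon-induced IFI6 11.3 ± 5.67 and 9.58 ± 1.19 CPM (SD, n = 4 cows each). JSP.1 and BOLA-A were the paired members of a list of 16 genes, and IFI6 that of a list of 51. None of them was called in edgeR or DESeq2.

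The other named genes with an unadjusted p under 0.05 in edgeR were 8. SLC6A11, a transporter of GABA and related amino acids, had 110.7, 150.6, 159.4 and 174.9 CPM in parity 1 and 108.9, 85.1, 95.7 and 139.6 CPM in parity 3. RND3, a GTPase without GTP hydrolysis that acts on the cytoskeleton, had 93.7 ± 7.69 CPM in parity 1 and 81.96 ± 4.91 CPM in parity 3 (SD, n = 4 cows each). INTS7, a subunit of the Integrator complex that processes small nuclear RNA, had 308.6 ± 24.5 and 361.0 ± 30.3 CPM (SD, n = 4 cows each). The other 5 were low genes with larger log2 differences, which were -1.28 for PKDREJ, -0.87 for SLC25A34, -0.83 for FAM102A, 1.74 for RASEF and 1.00 for TMEM102. That of TMEM102 was 0.26 without cows 14 and 17. The level of RASEF in parity 3 rested on cow 8, with 8.01 CPM against 0.888 to 1.89 CPM in the other 3, and its log2 difference was 0.86 without that cow.

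**Figure D2:**
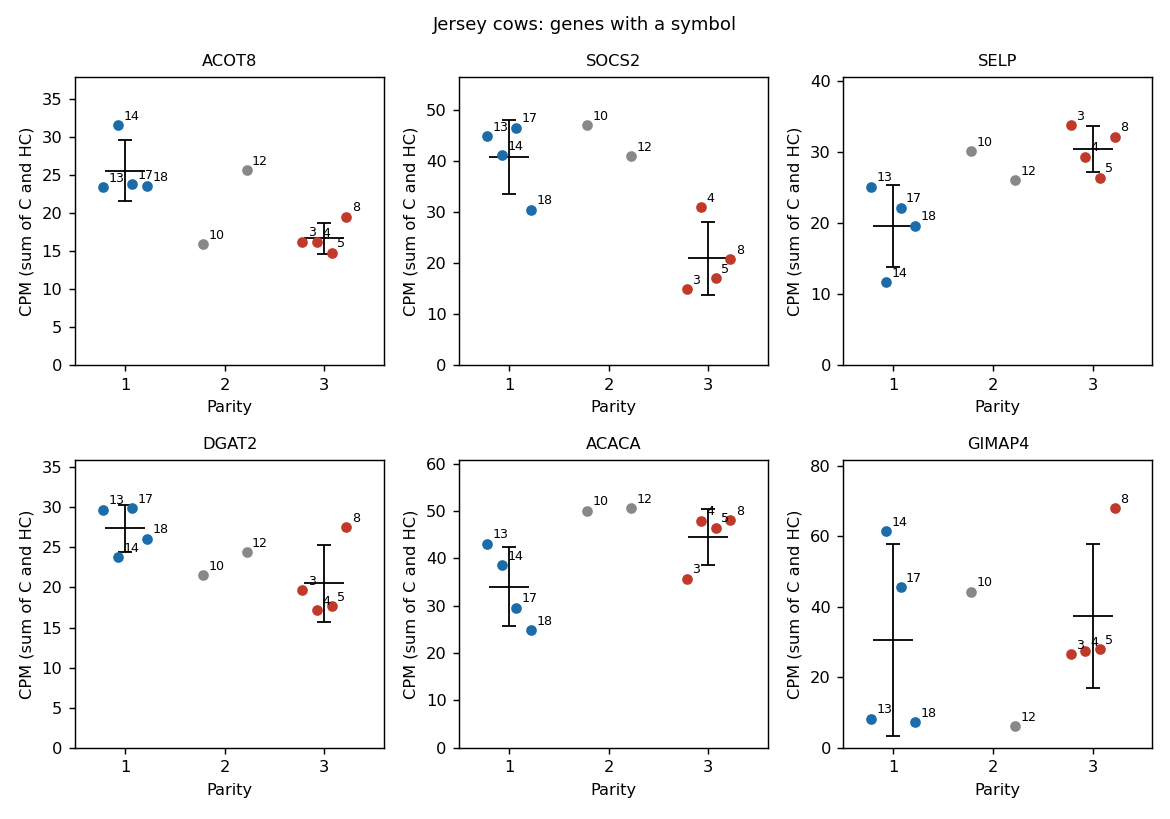
CPM (counts scaled to library size) of the summed libraries of each Jersey cow (y axes, from 0) by parity (x axes) for 6 genes with a symbol. Points are cows with their numbers and bars are mean ± SD of the 4 cows of parity 1 or 3. The groups are apart for ACOT8 and SELP, touch for SOCS2, and overlap for DGAT2, ACACA and GIMAP4, where cow 14 of parity 1 and cow 8 of parity 3 are highest.

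The same contrast was fitted in the Holsteins, 3 parity 1 and 3 parity 3 cows that share no sample with the Jerseys. They do share the selection blocks. In both breeds the parity 1 cows came from the same blocks, and the parity 3 cows from the same other blocks. Like signs in the 2 breeds therefore cannot tell parity apart from age, lactation stage or selection block. The feed efficiency label was High in cows 16 and 19 of parity 1 and cows 1 and 6 of parity 3. It was Low in cow 15 of parity 1 and cow 2 of parity 3. Cows 15 and 19 of parity 1 and cow 6 of parity 3 had received the HC diet first. There 8 genes were called (0.0669%), 3 higher (0.0251%) and 5 lower (0.0418%) in parity 3, and 769 genes (6.43%) had an unadjusted p under 0.05. Of the 1147 Jersey genes with an unadjusted p under 0.05, 802 (69.9%) had the same sign in the Holsteins, against 54.8% of all genes tested. In both breeds 184 genes had an unadjusted p under 0.05. Of these, 170 had the same sign, 73 higher and 97 lower in parity 3, and 14 had opposite signs. Of the 681 genes whose Jersey groups did not overlap, 443 (65.05%) had the same sign in the Holsteins.

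ENSBTAG00000006928 had 17.4, 26.5 and 14.8 CPM in parity 1 Holsteins 15, 16 and 19 and 45.1, 40.3 and 43.3 CPM in parity 3 Holsteins 1, 2 and 6. This is the order of the Jerseys, with a log2 difference of 1.13 (SE 0.200, edgeR adjusted p = 0.270). ENSBTAG00000022520 had 34.1, 23.7 and 37.3 CPM in parity 1 and 34.4, 23.9 and 26.4 CPM in parity 3, with no separation and a log2 difference of -0.17 (SE 0.204). The difference between the breeds was -0.75 (SE 0.210) for this gene, which did not pass in the breed by parity interaction (edgeR adjusted p = 0.908). ENSBTAG00000011624 had 1.83, 2.37 and 2.897 CPM in parity 1 and 0.753, 0.511 and 0.861 CPM in parity 3 of the Holsteins, again without overlap.

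Among named genes, GIMAP4 and ACACA were called in the Holsteins and not in the Jerseys. GIMAP4 had 89.7, 35.3 and 75.9 CPM in parity 1 Holsteins and 6.18, 7.92 and 4.38 CPM in parity 3 Holsteins, with -3.44 as the log2 fold change (SE 0.304, edgeR adjusted p = 0.0315). Parity 2 Holsteins 7, 9 and 11, which were not fitted, had 9.89, 96.6 and 7.24 CPM, so cows of the same parity also differed widely. ACACA had 29.9, 19.1 and 24.2 CPM and 46.6, 71.7 and 47.0 CPM, with 1.16 as the log2 fold change (SE 0.110, edgeR adjusted p = 0.0376). The call of GIMAP4 was lost without any one of Holsteins 1, 2, 6 or 15 (edgeR adjusted p from 0.0801 to 0.181), and that of ACACA without any one but Holstein 19 (edgeR adjusted p from 0.0923 to 0.199). SOCS2, with 54.4, 32.1 and 37.6 CPM in parity 1 and 27.1, 89.8 and 59.5 CPM in parity 3, had a positive log2 difference of 0.45 in the Holsteins. LYZ and ACOT8 were also positive there, at 0.72 and 0.25, and SELP was positive in both breeds, at 0.33 in the Holsteins. In the breed by parity interaction edgeR called 0 genes, with 619 at an unadjusted p under 0.05 (5.18%) and a lowest adjusted p of 0.698. Holstein minus Jersey, the interaction was -3.95 (SE 0.917) for GIMAP4, 1.47 (SE 0.453) for SOCS2 and 1.12 (SE 0.375) for LYZ. It was 0.86 (SE 0.328) for ACOT8 and 0.77 (SE 0.294) for ACACA. For these genes the unadjusted p ran from 0.00091 to 0.022 in edgeR, and the adjusted p was 0.908 for each. No difference between the breeds was therefore shown for any of these genes, and with so few cows none was shown to be absent.

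**Figure D3:**
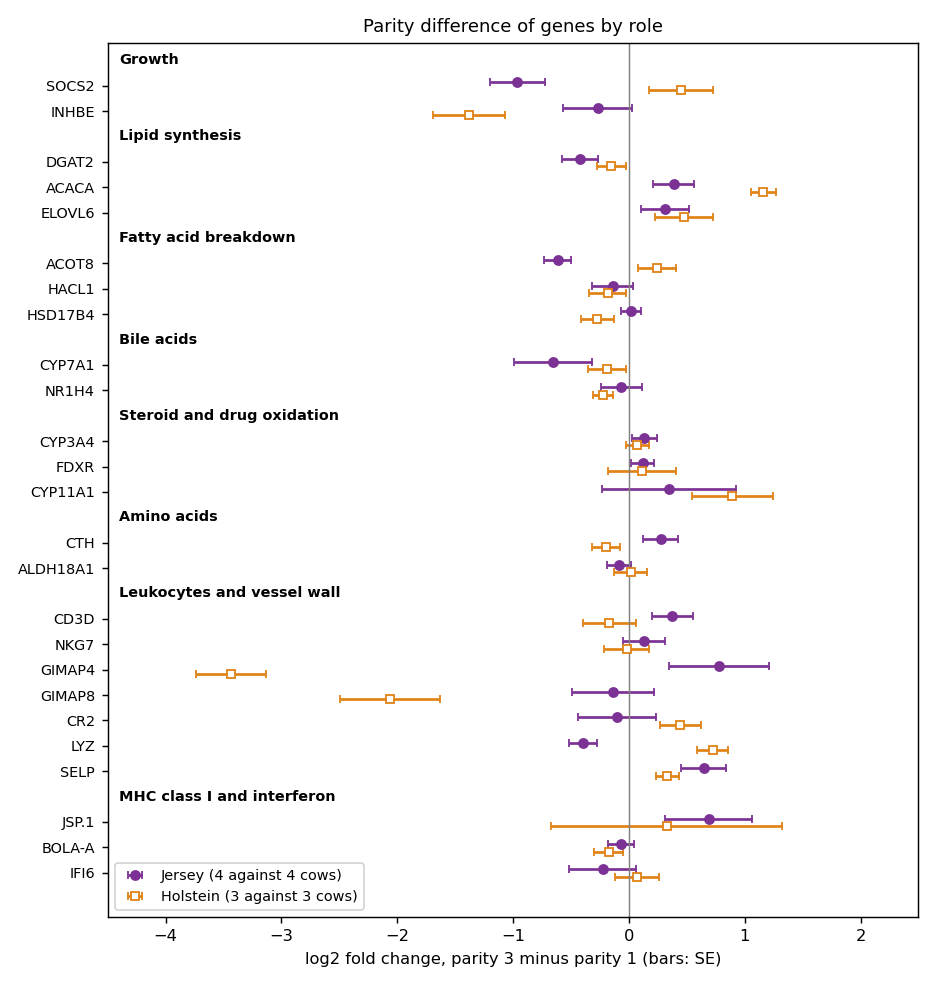
Log2 fold change, parity 3 minus parity 1 (x axis, bars are SE), for 25 genes by role (y axis). Filled circles are Jersey cows (4 against 4) and open squares Holstein cows (3 against 3). GIMAP4 is at 0.78 in the Jerseys and -3.44 in the Holsteins, SOCS2 at -0.96 and 0.45, and ACACA at 0.39 and 1.16.

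**Figure D4:**
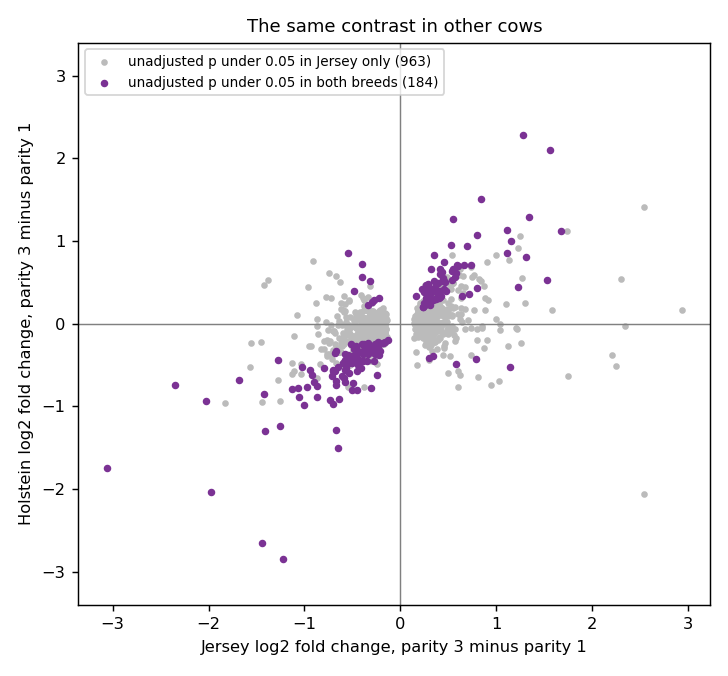
Log2 fold change, parity 3 minus parity 1, in the Jerseys (x axis) and Holsteins (y axis) for the 1147 genes with an unadjusted p under 0.05 in the Jerseys. Dark points are the 184 genes with an unadjusted p under 0.05 in both breeds, 170 of which lie in the quadrants of equal sign.

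The parity difference was last compared between the diets, within cows. For the interaction of diet and parity, edgeR with the cow as a fixed block called 0 genes, and 932 (7.80%) reached an unadjusted p under 0.05. With the same block, limma-voom called 1 gene and DESeq2 67. With the crossover period added to the edgeR model, 23 genes were called. In 166 genes (1.39%) the HC minus C difference had one sign in all 4 parity 1 cows and the other in all 4 parity 3 cows. In 93 of these (0.778%) the parity 1 cows were higher on the HC diet and the parity 3 cows lower. In 11 genes (0.0920%) with opposite signs, the interaction was also 4-fold or more.

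The smallest p of the interaction was that of ENSBTAG00000022395. On the C and HC diets it had 21.1 and 230.2 CPM in parity 1 cow 13, 102.3 and 1347 CPM in cow 14, 103.2 and 582.2 CPM in cow 17, and 184.6 and 500.9 CPM in cow 18. In the parity 3 cows it had 1373 and 933.8 CPM in cow 3, 574.7 and 142.0 CPM in cow 4, 1929 and 494.1 CPM in cow 5, and 534.2 and 224.0 CPM in cow 8. By the labels, every parity 1 cow was thus higher on the HC diet and every parity 3 cow higher on the C diet. On the C diet the parity groups did not overlap. The labels of cow 17 are in doubt, as above. The mean HC minus C difference was 2.77 ± 1.03 log2 CPM in parity 1 and -1.45 ± 0.689 in parity 3 (SD, n = 4 cows each). The interaction was -4.23 on the log2 scale (SE 0.505, edgeR adjusted p = 0.0594), just short of the threshold. It was called with the period added (edgeR adjusted p = 0.00735), in limma-voom (adjusted p = 0.0345), in DESeq2 (adjusted p = 4.55e-09) and without cow 18 (edgeR adjusted p = 0.00813). Without cow 17 it was -4.34 (edgeR adjusted p = 0.268), and without both cows 14 and 17 it was -3.87.

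The gene next in order, ENSBTAG00000022394, had the same directions in all 8 cows. Its mean HC minus C difference was 3.01 ± 1.27 log2 CPM in parity 1 and -1.32 ± 0.730 in parity 3 (SD, n = 4 cows each), and the interaction was -4.35 (SE 0.599, edgeR adjusted p = 0.111). The levels of ENSBTAG00000022394 followed those of ENSBTAG00000022395 from cow to cow, and whether the 2 genes share reads was not tested. They may therefore not be 2 separate results. The parity 2 cows again differed by their labels. ENSBTAG00000022395 was lower on the HC diet in cow 10 (2821 and 258.6 CPM on C and HC) and higher in cow 12 (446.7 and 951.9 CPM). The libraries labelled cow 10 may, however, come from different animals and from the same diet, as above. In the Holsteins the HC minus C difference of this gene was positive in the 3 parity 1 cows, at 0.85, 3.64 and 2.19 log2 CPM, and was -0.27, -1.88 and 3.88 log2 CPM in the 3 parity 3 cows. Holstein 6, at 3.88, and parity 1 Holsteins 15 and 19, at 0.85 and 2.19, had received the HC diet first. Of those given the C diet first, Holstein 16 was positive, at 3.64, and Holsteins 1 and 2 negative, at -0.27 and -1.88. In the Jerseys, by the labels, both signs occurred in either order. Given the HC diet first, cows 13 and 18 were positive and cows 4 and 5 negative. Given the C diet first, cows 14 and 17 were positive and cows 3 and 8 negative. Whether diet order bears on the difference in Holstein 6 was not tested. Of the 2 genes called over both diets, ENSBTAG00000022520 had a log2 difference of 0.61 on the C and 0.55 on the HC diet and was called on neither alone (edgeR adjusted p = 0.508 and 0.318). On the C diet its groups overlapped, since cow 8 of parity 3 had 21.3 CPM and cows 14, 17 and 18 of parity 1 had 22.4, 22.2 and 22.1 CPM. ENSBTAG00000006928 had 0.94 on the C and 1.204 on the HC diet and was called on the HC diet alone (edgeR adjusted p = 0.180 and 0.0336).

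**Figure D5:**
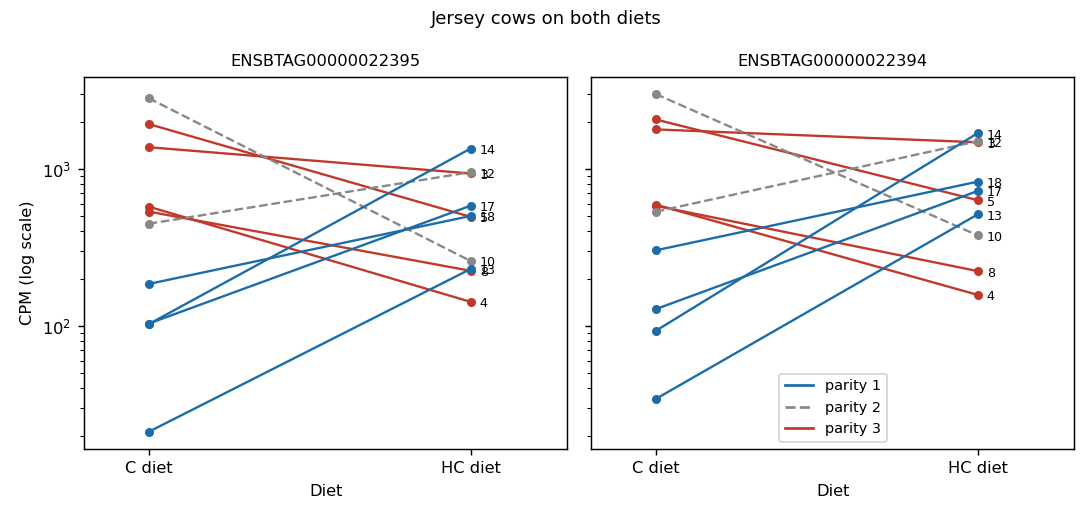
CPM (y axis, log scale) of both libraries of each Jersey cow, on the C and the HC diet (x axis), for the 2 genes with the smallest p in the interaction of diet and parity. Lines join the libraries of a cow, with cow numbers at the right. All lines of parity 1 go up and all lines of parity 3 go down, and the parity 2 cows 10 and 12 go opposite ways.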

How the data were processed

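Liver RNA of 8 Jersey cows (and 6 Holsteins beside them) was sequenced by the authors as stranded, paired-end mRNA libraries. They aligned the reads with STAR 2.3.0 to UMD3.1 with Ensembl annotation, and HTSeq-count gave the deposited counts, which are raw numbers of read pairs on each gene. Its strand setting is not given in the sources used here, so antisense and overlapping genes may share reads. All libraries ran together in 1 sequencing run.

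The counts of a cow's C and HC libraries were summed. Genes with 1 CPM in 4 or more of the 8 cows were kept, 11953 of 24616, holding 99.9% of the read pairs on genes. Read pairs on no gene (21.79% to 24.45%) were left out. The tests were edgeR 4.0.16 (TMM, quasi-likelihood, R 4.3.3) with feed efficiency and parity, two-sided, Benjamini-Hochberg adjusted over all genes tested. Log2 CPM used a prior count of 2. Alternatives used DESeq2 1.42.0 and limma 3.58.1. The members and lists were chosen with earlier results of these data known. Named were, per list of gene functions, up to 2 paired genes by smallest p (4 where called), and at most 2 identifiers per direction. Other genes were named after their values were seen. A gene was paired with a symbol only through the study's own lists. The C and HC libraries of a cow are paired by its number in the labels. Deviations of paired libraries from their group means correlated with r from -0.003 (cow 14) to 0.609, on average 0.295, against -0.098 between cows. The procedure was tested on simulated data.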

Additional observations from a re-analysis of the deposited data

Results flagged for a closer look

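In 6 of the 78 groups of 4 cows tested over the genes described, 1 cow lay far from the other 3 by Dixon's test, where chance flags about 5% of groups. In parity 3, cow 8 was highest for GIMAP4 (68.0 CPM), GIMAP8 (77.7 CPM) and RASEF (8.01 CPM), cow 4 was highest for PKDREJ (4.37 CPM), and cow 3 was lowest for ACACA (35.7 CPM). In parity 1, cow 14 was highest for ACOT8 (31.5 CPM).

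For ENSBTAG00000022395 and ENSBTAG00000022394 the HC minus C difference was positive in all 4 parity 1 cows and negative in all 4 parity 3 cows. The interactions were -4.23 and -4.35 on the log2 scale, with edgeR adjusted p of 0.0594 and 0.111, and over the alternatives the adjusted p ran from 4.55e-09 to 0.825 and from 4.68e-07 to 0.825. The direction was the same in all 14 alternatives. As given above, the 2 genes may not be separate results.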

How the results depend on the processing

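The count of 2 genes called in the Jerseys was 2 with DESeq2's size factors and in limma-voom, 5 with no filter on low counts, 143 in DESeq2, 0 with no feed efficiency term, 0 on the C and 8 on the HC libraries alone, 0 with all 10 Jersey cows, 0 to 1 without each cow in turn, and 0 without cows 14 and 17, an alternative chosen after seeing the data. With cow as random replicate block, which uses the pairing of the libraries, it was 11 (4 higher, with ENSBTAG00000022520 lost), at an estimated correlation of only 0.051 between the libraries of a cow, and the interaction of diet and parity stayed at 0 called genes without the block (848 at an unadjusted p under 0.05). The number of genes with an unadjusted p under 0.05 ran from 748 to 1385. The Holstein count of 8 was 1 to 9 without each cow in turn. The count of 0 in the interaction of breed and parity was 0 to 1 without each cow, with 1 without Jersey cow 14. That of diet and parity was 0 to 3 without each cow (2 without cow 8, 3 without cow 18), 23 with the period added, 1 in limma-voom and 67 in DESeq2. Except for the fit without cow 17, which was planned, and that without the block, these alternatives to both interactions were chosen after seeing the data.

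Directions turned in the following genes, none of them called. On the C libraries alone, the log2 difference was 0.40 for IFI6, -0.11 for ELOVL6, -0.0498 for HSD17B4, 0.0386 for NR1H4 and -0.0559 for CYP3A4. On the HC libraries it was 0.17 for ALDH18A1 and 0.45 for FICD. FICD was also at 0.18 in limma-voom, 0.15 with no feed efficiency term, 0.22 with the random replicate block and 0.0352 with all Jersey cows. Without cows 14 and 17 it was 0.67 for FICD, 0.0192 for HACL1, -0.10 for HSD17B4 and -0.0933 for CYP3A4.
Without each cow in turn, the log2 difference ran from -0.0358 to 0.31 for NKG7, -0.56 to 0.16 for GIMAP8, -0.36 to 0.30 for CR2, -0.13 to 0.0412 for BOLA-A, -0.46 to 0.19 for IFI6, -0.0534 to 0.0519 for HSD17B4, -0.30 to 0.0336 for NR1H4, -0.15 to 0.79 for CYP11A1, -0.16 to 0.0361 for ALDH18A1 and -0.41 to 0.27 for FICD.
Causes were not tested. Genes near 1 CPM rest on the fewest read pairs.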
